A study of Capra hircus with 2 samples.

Results

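The miR-29 family was followed in small RNA from the mammary gland of dairy goats, in 2 libraries, 1 from the dry period and 1 from peak lactation. Its members were the listed goat sequences named miR-29 with a letter from a to e, which gave 5 (miR-29a, miR-29b, miR-29c, miR-29d and miR-29e) of the 346 conserved miRNAs. Both libraries came from 2.5-year-old Xinong Saanen goats, and RNA of 3 goats was pooled for each stage. The gland was used as whole tissue. The labels put the dry period library at 75 days after lambing and the peak lactation library at 320 days, and the text of the study gives these days the other way round. The stage names were followed here, and the number of clean reads in each file is the one the study lists under the same stage name. Each stage thus had 1 library, so differences between goats could not be measured, and every interval and p value below covers the counting of reads in these 2 libraries alone.

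MicroRNAs of a family share the seed, the stretch at nucleotides 2 to 8 through which a miRNA mainly pairs with its target mRNAs. In mammals miR-29a, miR-29b and miR-29c are made from paired precursor genes in 2 clusters, in which a miR-29b copy lies beside miR-29a or beside miR-29c. The family is best known for holding down mRNAs of collagens, elastin and other extracellular matrix proteins, and the DNA methyltransferases DNMT3A and DNMT3B. The mammary gland rebuilds its matrix and epithelium between the dry period and lactation, which gives the comparison between these stages its question: whether the members are present at different levels, and whether they move together. The goat gene table of the ARS1.2 assembly holds 3 genes of the family, MIR29A, MIR29B and MIR29C. MIR29B and MIR29C are on the same chromosome with 1 annotated gene between them, and MIR29A is on another chromosome. The listed mature sequence of miR-29b does not tell copies of its gene apart.

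The 5 listed sequences are shown with the seed in capitals, because the seed groups them and the bases after it separate them.
miR-29a: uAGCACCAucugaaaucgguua
miR-29b: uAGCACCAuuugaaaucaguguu
miR-29c: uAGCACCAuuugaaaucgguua
miR-29d: uAGCACCAuuugaaaucg
miR-29e: uAGCAUCAuuugaaaucagugu
The first 4 share the seed AGCACCA, which no other of the 346 listed miRNAs has. The seed of miR-29e, AGCAUCA, is found in 1 listed miRNA, miR-29e itself. With positions counted from 1 at the 5′ end, miR-29a and miR-29c differ by C10U alone. From miR-29c to miR-29b the changes are G18A, U21G and A22U, and miR-29b has 1 more base at the 3′ end. From miR-29b to miR-29e the change is C6U, which lies in the seed. The listed miR-29d is the first 18 nt of miR-29c.

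The authors deposited each distinct read sequence, called a tag here, with its count of clean reads. Clean reads numbered 14851375 in the dry period library and 15712891 in that of peak lactation. Each tag went to the listed miRNA that it matched without mismatch over the most bases, starting at the 5′ end and covering 18 nt or more, whatever its 3′ end, so that miR-29a and miR-29c were told apart by position 10. Levels are given as reads per 1000000 clean reads of the library (RPM). The 3 reads taken as the smallest visible level equal 0.202 RPM in the library of the dry period and 0.191 RPM in the other. Tags of conserved miRNAs took up 61.1% of all clean reads of the dry period library and 14.4% of those at peak lactation, a fold difference of 4.24 that touches every value per clean read. By the study's own count of reads matched to miRNA precursors, the libraries lie closer together than this. For let-7, an abundant family, the study also gives a larger share of clean reads at peak lactation than was counted here. The reason for these gaps was not tested, so the fold of 4.24 and the scaling built on it hold for the counting used here.

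miR-29a was by far the most abundant member, followed by miR-29c and then miR-29b, in both libraries. For miR-29a, 114957 reads were counted in the dry period against 48292 at peak lactation, or 7741 RPM (95% interval 7696 to 7785) and 3073 RPM (95% interval 3046 to 3101). It ranked 11 among the conserved miRNAs in each library. For miR-29c the counts were 9559 and 7394 reads, or 644 and 471 RPM, with ranks of 53 and 36. For miR-29b they were 2968 and 1051 reads, or 199.8 RPM (95% interval 193 to 207) and 66.9 RPM (95% interval 63.0 to 71.1), with ranks of 73 and 79. The intervals of these 3 members did not overlap between the libraries, with the higher level in the dry period. At this depth the same held for 212 of the 257 conserved miRNAs that reached 1 RPM in either library (82.5%), so it is no feature of the family. The order of the 3 was the same in both libraries, with gaps far wider than the counting error. In the dry period 121, 65 and 41 different tags were counted for miR-29a, miR-29c and miR-29b, of which 52, 33 and 22 had a single read. The 3 most frequent tags held 94.6%, 92.9% and 85.4% of the reads.

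The listed miR-29e was near the limit of detection. The listed miR-29d could only be given tags whose match ended at 18 nt, since any longer match to miR-29c went to miR-29c. Its count is therefore no measure of its abundance. For miR-29d, 23 and 11 reads were counted, and all of them fitted miR-29c equally well. Only 6 and 3 of those reads were identical to the listed 18 nt. For miR-29e, 3 reads were found in the dry period against 0 of 15712891 at peak lactation, where a count of 0 allows up to 0.191 RPM. No fold change is given for miR-29e, since neither library was above 3 reads.

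**Figure D1:**
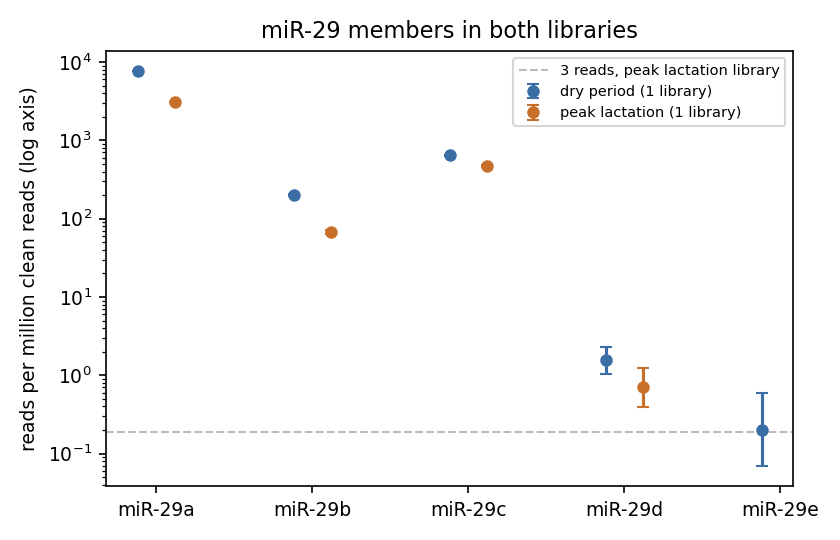
Level of each listed miR-29 sequence in reads per 1000000 clean reads (log axis), with 1 point for each library and the Wilson 95% interval of counting as bars, which are hidden by the points of the abundant members. From miR-29a to miR-29c each member sits lower at peak lactation on this scale, miR-29d stands at 1.55 and 0.700 RPM, miR-29e lies at the dashed line (3 reads in the peak lactation library) in the dry period, and it has no point at peak lactation because its count was 0.

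Per clean read, miR-29a and miR-29b were lower at peak lactation and passed the thresholds of the study (an absolute log2 fold change above 1 and an Audic-Claverie p below 0.01), and miR-29c did not. The log2 fold change of RPM, peak lactation over dry period, was -1.33 for miR-29a (95% interval -1.35 to -1.32), a fall of 2.52-fold. For miR-29b it was -1.58 (95% interval -1.68 to -1.48, exact Audic-Claverie p = 2.6e-233), a fall of 2.99-fold. For miR-29c it was -0.45 (95% interval -0.50 to -0.41, exact p = 9.1e-92), so the fold stayed under the threshold although the counts could tell the 2 libraries apart. The value for miR-29d, -1.15, came only from tags shared with miR-29c. It had a wide interval (95% interval -2.16 to -0.13, exact p = 2.7e-02) and did not pass. Of the 4 members with at least 1 RPM in one of the libraries, 2 were thus called lower. Among all 257 conserved miRNAs tested in this way, 174 were called lower (67.7%) and 3 higher, so the share of the family called was not above that of miRNAs at large.

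The family as a whole, with each tag counted once, went from 127487 to 56737 reads, or from 8584 to 3611 RPM. Its log2 fold change was -1.25 (95% interval -1.26 to -1.24). Of the loss of 4973 RPM, miR-29a made up 93.8%, miR-29c 3.48% and miR-29b 2.67%. The median log2 fold change over the 257 tested miRNAs was -1.44, with quartiles of -2.15 and -0.92. Lower values than that of miR-29a were found for 141 of the 257 miRNAs, and lower values than that of miR-29b for 115. For miR-29c the number was 224, which places this member among the conserved miRNAs that were best kept per clean read at peak lactation.

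The direction for the family depended on the denominator. Divided by the reads of conserved miRNAs, miR-29a made up 1.27% of these reads in the dry period against 2.13% at peak lactation, miR-29c 0.105% and 0.326%, and miR-29b 0.0327% and 0.0464%. On this scale, which adds 2.08 to every log2 fold change, the values were 0.75 for miR-29a, 0.50 for miR-29b and 1.63 for miR-29c (95% interval 1.59 to 1.68). miR-29c then passed the thresholds as higher at peak lactation, as did 33.1% of the 257 miRNAs (85, against 15 called lower). With TMM factors, which balance most miRNAs against each other, miR-29a stood at -0.033, miR-29b at -0.28 and miR-29c at 0.85, and none of the 3 was called. Part of the size of the shift rested on let-7, an abundant family. By the counting used here, let-7 made up 76.1% of conserved miRNA reads in the dry period against 53.9% at peak lactation. In a scaling chosen after the data were seen, by the conserved miRNA reads other than let-7 (14.6% and 6.65% of clean reads), 1.13 was added in place of 2.08. miR-29a then stood at -0.20 and miR-29b at -0.44, without a change of direction, miR-29c stood at 0.68, and none of the 3 was called. Which of these scales is nearer to the amount of miRNA per cell was not tested.

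**Figure D2:**
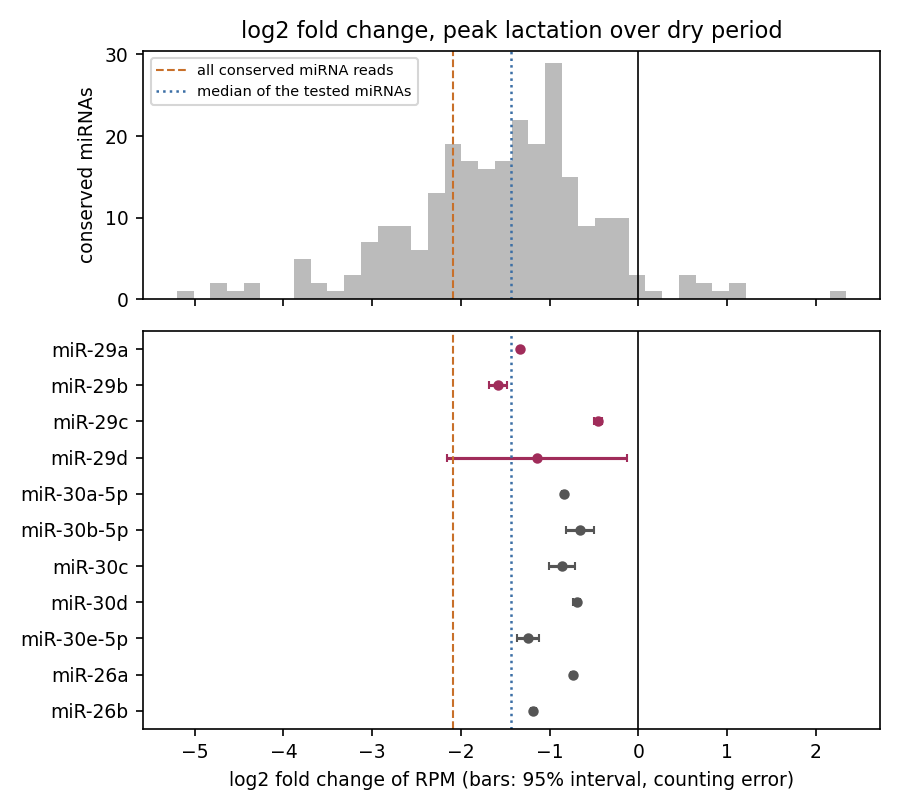
Histogram of the log2 fold changes of RPM of the 257 tested conserved miRNAs (upper panel) and values of single members of the miR-29, miR-30 and miR-26 families with 95% counting intervals (lower panel), peak lactation over dry period. miR-29a and miR-29b lie on either side of the dotted median at -1.44 while miR-29c lies far to its right at -0.45. Measured from the dashed line at -2.08, the change of all conserved miRNA reads together, miR-29a, miR-29b and miR-29c lie on the higher side. Without let-7 that change is -1.13, and miR-29c alone of the 3 lies on the higher side.

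The balance between the members does not depend on any denominator. miR-29c made up 7.50% of the family's reads in the dry period (95% interval 7.35 to 7.64%) against 13.0% at peak lactation (95% interval 12.8 to 13.3%). The share of miR-29a was 90.2% in the dry period against 85.1% at peak lactation, a difference of -5.06 percentage points (95% interval -5.39 to -4.72). miR-29b made up 2.33% and 1.85% of the reads. For each read of miR-29c there were 12.0 reads of miR-29a in the dry period against 6.53 at peak lactation, and for each read of miR-29b there were 3.22 and 7.04 reads of miR-29c. The log2 fold change of miR-29c was above that of miR-29a by 0.88 (95% interval 0.83 to 0.93), or 1.84-fold, and above that of miR-29b by 1.13 (95% interval 1.02 to 1.24), or 2.18-fold. miR-29b stood only slightly below miR-29a, by -0.25 (95% interval -0.35 to -0.14), a ratio of 0.843. The members sharing 1 seed therefore did not change by the same factor, and miR-29c stood furthest from the other 2.

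Since miR-29c is 1 base away from miR-29a, its reads were set beside the other tags that differ from miR-29a by a single base. Tags of 22 nt with C10U, which are identical to miR-29c, had 7713 reads in the dry period against 6213 at peak lactation. These are 8.74 and 16.3 for every 100 reads identical to miR-29a. The 50 other substitutions at positions 1 to 17 had a median of 21.5 reads in the dry period (3 to 130) against 7.5 at peak lactation (0 to 60). The most frequent of them came to 0.147 and 0.158 for every 100 identical reads. At position 10 itself, C10A had 13 and 7 reads and C10G 11 and 5. The reads identical to miR-29c thus stood far above every other single-base tag in this stretch of miR-29a, in both libraries.

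**Figure D3:**
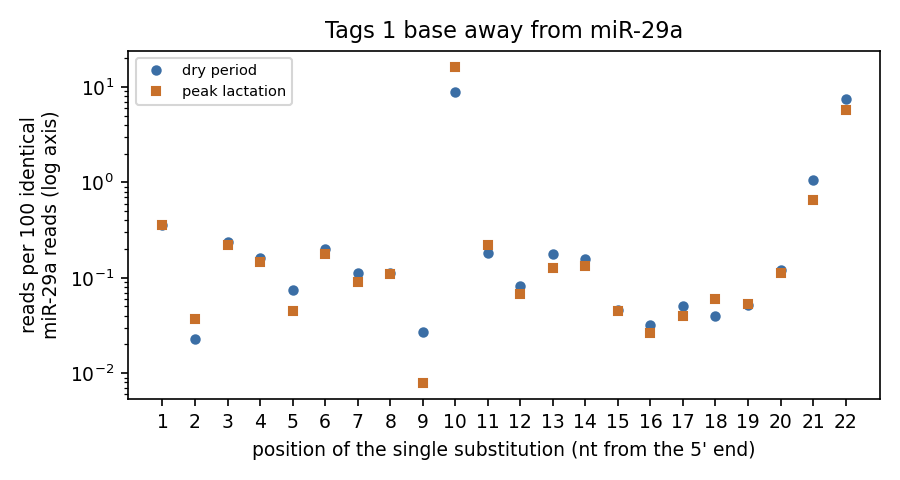
Reads of 22-nt tags with a single substitution against miR-29a, summed over the 3 possible bases at each position and given per 100 reads identical to miR-29a (log axis), for both libraries. Position 10, where miR-29c differs from miR-29a, stands at 8.76 in the dry period against 16.4 at peak lactation, positions 21 and 22 hold the 3′ end variants, and the other positions lie at or below 0.361 in both libraries.

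The same view was taken of miR-29e. Its 3 reads in the dry period were 0.101 for every 100 reads of miR-29b (95% interval 0.0344 to 0.297). At peak lactation the 95% interval of 0 beside 1051 reads reaches 0.364. The substitution that separates it from miR-29b, C6U, was also seen in 22-nt tags that otherwise matched miR-29a, with 71 and 34 reads, or 0.0804 and 0.0893 for every 100 identical reads. In tags that otherwise matched miR-29c it had 8 and 5 reads, or 0.104 and 0.0805 for every 100. These values count full-length tags per identical read, while the reads of miR-29e include all 3′ ends and stand beside all reads of miR-29b. Among full-length tags of miR-29b, C6U had 1 read in the dry period (0.0960 for every 100 identical reads) and 0 at peak lactation. The values of miR-29a and miR-29c lie within the dry period interval of miR-29e. A level of miR-29e above that of the same base change in the other members was thus not detectable at this depth. Whether miR-29e is a gene product of its own was not tested.

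The 3′ ends of miR-29a and miR-29c were sharp and those of miR-29b were not. The tags below are the frequent end variants on which this rests, with a capital marking a base that is not in the listed sequence.
miR-29a, 21 nt: uagcaccaucugaaaucgguu
miR-29a, 22 nt with U at the end: uagcaccaucugaaaucgguuU
miR-29c, 21 nt: uagcaccauuugaaaucgguu
miR-29c, 22 nt with U at the end: uagcaccauuugaaaucgguuU
miR-29b, 20 nt: uagcaccauuugaaaucagu
miR-29b, 22 nt: uagcaccauuugaaaucagugu
Reads identical to the listed sequence made up 76.8% of miR-29a in the dry period against 78.8% at peak lactation, and 80.7% and 84.0% of miR-29c. For miR-29b they were only 35.1% and 36.7%. Over the 77 conserved miRNAs with at least 1000 reads in both libraries, the family included, the median share was 43.5% in the dry period against 43.2% at peak lactation. In the dry period 71 of the 77 had a smaller share than miR-29a, 74 a smaller share than miR-29c and 20 a smaller share than miR-29b.

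Among miR-29b reads, tags of 23 nt and of 20 nt were nearly equal in number. The identical 23-nt tag had 1042 reads in the dry period against 386 at peak lactation, and the 20-nt tag had 992 and 342. Tags of 20 nt, whatever their last base, made up 33.5% and 32.6% of miR-29b, tags of 22 nt 17.9% and 16.0%, and tags of 21 nt, which lie between, 5.90% and 6.37%. For miR-29a, tags of 20 nt were 0.364% and 0.304%, and for miR-29c 0.492% and 0.568%. The last 6 bases of miR-29b, AGUGUU at positions 18 to 23, form a motif known from human cells to take miR-29b into the nucleus. The letters occur in 4 of the 346 listed miRNAs (1.16%) on the strand of the miRNA, and at the very 3′ end in miR-29b alone. Reads with all 6 letters were 39.1% of miR-29b in the dry period (95% interval 37.4 to 40.9%) against 40.7% at peak lactation (95% interval 37.8 to 43.7%). The difference was 1.61 percentage points with an interval from -1.82 to 5.07, so a shift in the ends of miR-29b was not detectable at this depth.

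**Figure D4:**
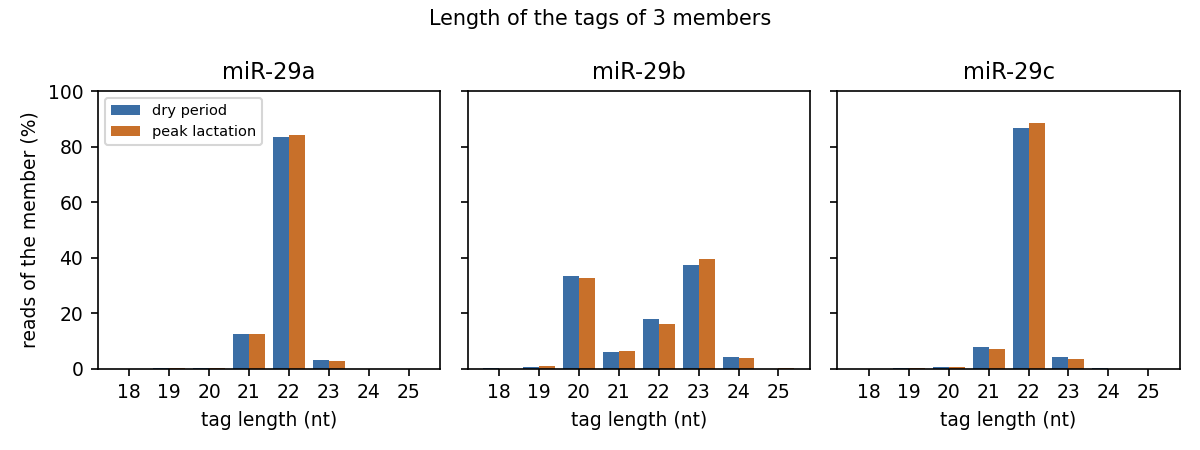
Share of the reads of miR-29a, miR-29b and miR-29c by tag length from 18 to 25 nt, for the dry period and peak lactation libraries. miR-29a and miR-29c have a single peak at 22 nt (83.6% and 86.6% of reads in the dry period), while miR-29b has peaks at 23 nt and 20 nt, and the pairs of bars have nearly the same height in both libraries.

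In miR-29a and miR-29c the identical tag held a larger share at peak lactation, by 2.01 percentage points for miR-29a (95% interval 1.57 to 2.44) and by 3.34 for miR-29c (95% interval 2.18 to 4.49). Among the 77 miRNAs with at least 1000 reads in both libraries, the identical share was lower at peak lactation for 41 and higher for 36. The differences ran from -9.09 to 7.89 points, with a median of -0.37. Both gains lay above the upper quartile of these differences but well within their range. The tag of miR-29a and miR-29c in which the matched 21 nt are followed by U in place of the last A held a smaller share at peak lactation. It made up 5.36% of miR-29a in the dry period (6157 reads) against 4.20% at peak lactation (2028 reads), and 4.53% and 3.41% of miR-29c (433 and 252 reads). The differences were -1.16 percentage points (95% interval -1.38 to -0.93) and -1.12 (95% interval -1.71 to -0.53). Counting every tag with a single U after the matched stretch gave 6.36% and 5.005% for miR-29a, 5.61% and 4.19% for miR-29c and 3.30% and 2.76% for miR-29b. Over the 77 miRNAs the median difference of this share was -0.05 percentage points, with 42 lower and 35 higher at peak lactation, and 10 of the 77 had a more negative difference than miR-29a and 9 a more negative one than miR-29c. A single added A differed less, by -0.04 points for miR-29a (95% interval -0.19 to 0.11) and -0.40 for miR-29c (95% interval -0.90 to 0.11). When tags with any base beyond the matched stretch were left out, the gain of the identical tag shrank to 0.43 percentage points for miR-29a and 1.18 for miR-29c. Precursor sequences were not used here, so a last base copied from the gene and one added later cannot be told apart.

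The separation of miR-29c from the other 2 abundant members held for each frequent tag. The 3 most frequent tags of miR-29a changed by -1.30, -1.34 and -1.68 on the log2 scale per clean read, and those of miR-29b by -1.51, -1.62 and -1.76. Those of miR-29c changed by -0.39 (identical tag), -0.61 (21 nt) and -0.86 (95% interval -1.09 to -0.64, U at the end), so that even the last lay above the 6 tags of the other 2 members. Within each member, the third tag had the most negative value and the identical tag the least negative. The intervals of the 3 miR-29b tags overlapped, however, as did those of the first 2 tags of miR-29a. The third tag is also a shortened one in miR-29b, and one with U at the end in miR-29a and miR-29c.

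Reads with a shifted 5′ end, which changes the seed, were rare. Tags that carried 1 base more in front of miR-29a had 1368 reads in the dry period against 530 at peak lactation, or 1.19 and 1.10 for every 100 reads with the listed start. The added base was C in 1299 and 519 of them. For miR-29b such tags had 46 and 13 reads, of which 40 and 13 carried C. For miR-29c they had 34 and 26 reads, and A was the added base in 30 and 19. Tags that started 1 nt inside the listed sequence had 171 and 57 reads for miR-29a, 7 and 3 for miR-29b and 9 and 7 for miR-29c. All 5′ variants within 2 nt together were 1.40 and 1.26 for every 100 reads of miR-29a, 1.89 and 1.71 for miR-29b and 0.680 and 0.636 for miR-29c. Reads with a shifted seed thus stayed at or below 1.89 for every 100 with the listed start in each of these members and both libraries.

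Set beside miR-30 and miR-26, which were the only families compared, the miR-29 total was lower at peak lactation by a larger factor per clean read. Its log2 fold change of -1.25 was still less negative than the median of all tested miRNAs. That total was mostly miR-29a, and miR-29c at -0.45 was less negative than every member of miR-30 and miR-26 compared. The log2 fold change of the family was below that of the miR-30 family by 0.43 (difference -0.43, 95% interval -0.45 to -0.41) and below that of miR-26 by 0.32 (difference -0.32, 95% interval -0.34 to -0.29). The 5 members of miR-30 that were compared lay between -1.25 and -0.66, with 1 of 5 called lower. A further listed sequence, miR-30f, was looked at after its value was seen and stood at -1.46, called lower, and with it the difference between the families was -0.42 (95% interval -0.44 to -0.40). For the miR-26 family, miR-26a stood at -0.73 and miR-26b at -1.18, with miR-26b called. The miRNAs whose log2 fold change was nearest to the family's -1.25, over 2 libraries and 74 miRNAs with at least 1000 reads in each, were miR-205 (-1.25), miR-744 (-1.30), miR-26b (-1.18), miR-140 (-1.18) and miR-27a-3p (-1.32).

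Levels of miRNAs typical of single cell types are given beside these values, and their counts are to be read against the 67.7% of all tested miRNAs called lower and the median of -1.44. The summed level of 5 miRNAs of stroma and fibroblasts was 12581 RPM in the dry period against 2589 RPM at peak lactation, with 4 of 5 called lower and a median log2 fold change of -2.45. The 6 epithelial miRNAs (the miR-200 family and miR-205) went from 2687 to 1342 RPM, with 3 of 6 called lower and a median of -1.10, above that of all tested miRNAs. The 2 of smooth muscle and myoepithelium went from 11846 to 5199 RPM (1 of 2 called lower), 5 of skeletal muscle from 7299 to 3874 RPM (4 of 5), 6 of immune cells from 511 to 186 RPM (4 of 6) and 2 of the endothelium from 129 to 81.4 RPM (0 of 2). The 3 of red blood cells went the other way, from 109.9 to 189.5 RPM, with 2 of 3 called higher. These directions hold per clean read. With conserved miRNA reads as the denominator 2.08 is added to each log2 fold change, and only the list median of stroma and fibroblasts stays negative. With 1.13 (without let-7) or 1.30 (TMM) added, the medians of smooth muscle and myoepithelium, skeletal muscle and immune cells stay negative too. With 1.40 added (DESeq2 size factors), that of smooth muscle and myoepithelium alone does so beside stroma and fibroblasts. The summed levels do not always follow these medians. Per clean read they changed by -0.91 for skeletal muscle, -1.19 for smooth muscle and myoepithelium and -1.46 for immune cells. With 1.13 added the sum of skeletal muscle turns positive, and with 1.30 that of smooth muscle and myoepithelium does too. With 1.40 added the sum of immune cells stays negative. None of these miRNAs was at 0 in either library. In whole tissue, fewer cells of a type and less RNA per cell cannot be told apart, and the part of these shifts in the values of the miR-29 members was not tested.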

How the data were processed

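Small RNA of pooled mammary gland RNA was sequenced by the study on the Solexa platform, 1 library per stage. The authors filtered by quality, dropped reads with missing inserts or faulty adaptors, poly(A) sequence or fewer than 18 nt, and deposited raw counts of clean reads per tag, neither normalized nor aligned. The submitters' processing notes name CASAVA. Tags of the family, as of all 346 conserved miRNAs, were counted as described in the report, with sequences (no values) from the study's list of conserved miRNAs, and a tag that fitted several equally was counted for each. Reads were divided by the clean reads and multiplied by 1000000. A count of 0 was set to 0.01 RPM, miRNAs that reached 1 RPM in neither library were not tested, and p is the two-sided Audic-Claverie probability (the smaller tail doubled). edgeR cannot estimate a spread from 1 library per stage. Intervals are Wilson for shares, levels and, through the split of reads, for fold changes, Newcombe for differences of shares and Wald for differences of log2 fold changes. They cover counting error only, since each stage had 1 library. PCR copies are not independent molecules, so even that error may be understated. TMM and size factors came from edgeR 4.0.16 and DESeq2 1.42.0 (R 4.3.3). Other steps ran in Python 3.11.15 with scipy 1.17.1, numpy 2.4.6 and, for figures, matplotlib 3.10.9. Counting and test were tried on simulated tags of the full listed sequences, with large changes and counting noise alone. End variants and differences between goats were not simulated, so the trial does not cover them. Named miRNAs were all members, the miR-30 and miR-26 members, the 5 nearest in log2 fold change and the 3 most frequent tags of each abundant member. Members, lists and comparisons were chosen with earlier results of these data known. Opposite strands and precursors of the family were not analysed here.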

Additional observations from a re-analysis of the deposited data

How the results depend on the processing

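Of the values recomputed under other settings, the fold changes kept their direction and their side of the thresholds under every counting rule tried (identical tags, 20 nt, 1 mismatch, shifted starts, split ties, tags with 2 reads or more) and with 1 read added, and the differences of miR-29b and of miR-29c from miR-29a stayed within their intervals. Scaling changed them, because it adds 2.08 (reads of conserved miRNAs), 1.30 (TMM), 1.40 (DESeq2 size factors) or 1.13 (reads of conserved miRNAs without let-7, chosen after seeing the data) to every log2 fold change. In that order, the family stood at 0.83, 0.050, 0.15 and -0.11, miR-29a at 0.75, -0.033, 0.064 and -0.20, miR-29b at 0.50, -0.28, -0.18 and -0.44, and miR-29c at 1.63, 0.85, 0.94 and 0.68. The conserved miRNAs called were then 100 (15 lower, 85 higher), 69 (48 and 21), 70 (42 and 28) and 73 (59 and 14), in place of 177, and 154 to 182 under the other settings. Without tags that carry bases beyond the matched stretch, the difference in the identical share was 0.43 points for miR-29a and 1.18 for miR-29c. No paired analysis was possible because each stage had 1 library, and for the same reason no library could be left out. Depth limits miR-29e and the end variants of miR-29b. The count of miR-29d is limited by its sequence instead, since all of its reads fitted miR-29c equally well.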
